A study of Setaria italica with 18 samples.

Results

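The 12 h response to artificial seawater was compared between the foxtail millet (Setaria italica) varieties B175 and JK3. For each gene the measure was the interaction of variety and time, which is the change from 0 to 12 h in JK3 minus the change from 0 to 12 h in B175. A positive interaction therefore means that the gene went up more, or down less, in JK3, and a negative one that it went up more, or down less, in B175. The estimate of the interaction came from the 12 libraries of 0 and 12 h and its error from all 18 libraries, and 23824 of the 29108 genes in the table had a mean FPKM of at least 0.1 and were tested.

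Leaves of seedlings at the stage of 3 leaves were sampled from B175, described as salt-sensitive, and JK3, described as salt-tolerant, at 0, 12 and 24 h of treatment with diluted artificial seawater, the saline-alkali stress of the study. The groups are B0, B12 and B24 for B175 and J0, J12 and J24 for JK3, with 3 biological replicates each. All seedlings were grown in a climate chamber with equal day and night, and each variety is a single line, so a difference between varieties is a difference between these 2 lines. Values are FPKM, mapped fragments of a gene scaled by its length and by the total of the library, and the 18 libraries held 34738627 to 38798886 fragments.

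A change within 1 variety mixes the hour of the day with the treatment. A difference between the varieties in daily rhythm, or in the hour at which their leaves were taken, would remain in the interaction and cannot be told apart from a difference in the response. None of the 18 libraries is labelled as leaves kept in water until 12 h. An interaction has the same value whether the varieties were apart at 0 h or at 12 h. For every called gene JK3 and B175 were therefore also compared at each time, and the gene was placed in 1 of 4 classes by whether the varieties differed at 0 h only, at 12 h only, at both times or at neither. These comparisons share libraries with the interaction and serve to place it, not to support it. A difference at 0 h between the varieties cannot be told apart from a difference between the samplings of B0 and J0.

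Salt in the root zone lowers the water that a leaf can draw and later loads it with sodium. Leaves answer through the hormone abscisic acid, which releases kinases from inhibition by protein phosphatases 2C and turns on genes for protective proteins such as dehydrins and other late embryogenesis abundant (LEA) proteins. Growth-related genes, among them those of auxin response and cell wall loosening, commonly go down at the same time, and jasmonate and the DREB and ERF transcription factors form further arms of the stress response.

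In the interaction 1398 genes (5.87% of those tested) were called at an adjusted p under 0.05 in limma with Benjamini-Hochberg adjustment over all tested genes, a rule used throughout. Of these 544 (2.28%) were positive and 854 (3.58%) negative, and 1143 had an absolute interaction above 1 on the log2(FPKM + 1) scale. The table gave a description for 1021 of the called genes. The count rests on single libraries in part: it was 770 without B0 replicate 3 and 863 without B12 replicate 1, and 650 genes were called in all 12 fits that left out 1 library of 0 or 12 h.

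Most of the called genes differed between the varieties before the treatment and not at 12 h. JK3 and B175 differed at 0 h only in 899 of the 1398 genes (64.3%), at 12 h only in 314 (22.5%), at both times in 148 (10.6%) and at neither in 37 (2.65%). Over all tested genes these shares were 21.0%, 4.92%, 5.21% and 68.9%. J0 vs B0 called 26.2% of the tested genes, 14.4% higher and 11.8% lower in JK3, and J12 vs B12 called 10.1%, 5.88% higher and 4.24% lower. When 1 library was left out the classes held 495 to 1011, 159 to 326, 79 to 150 and 11 to 34 genes, the lowest without B0 replicate 3 for 0 h only, B12 replicate 1 for 12 h only, J12 replicate 2 for both times and B0 replicate 2 or 3 for neither. In the 12 libraries of 0 and 12 h alone they held 1269, 397, 259 and 54. A comparison that missed the threshold does not show that the varieties were equal at that time.

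The classes were unequal between the directions. Of the 854 negative genes, 652 differed at 0 h only, 106 at 12 h only, 78 at both times and 18 at neither. Of the 544 positive genes, 247 differed at 0 h only and 208 at 12 h only. After median-ratio scaling, which centres each library on its typical gene, these were 609 and 85 negative genes and 359 and 162 positive genes, so the near-even split of the positive genes depends on the scale. In the 652 negative genes the median difference of JK3 minus B175 was 1.31 at 0 h and -0.14 at 12 h on the log2(FPKM + 1) scale, and in the 208 positive genes apart at 12 h only it was -0.24 at 0 h and 1.50 at 12 h. The plot of the differences at both times shows the negative genes mostly to the right of zero at 0 h and near zero at 12 h.

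**Figure D1:**
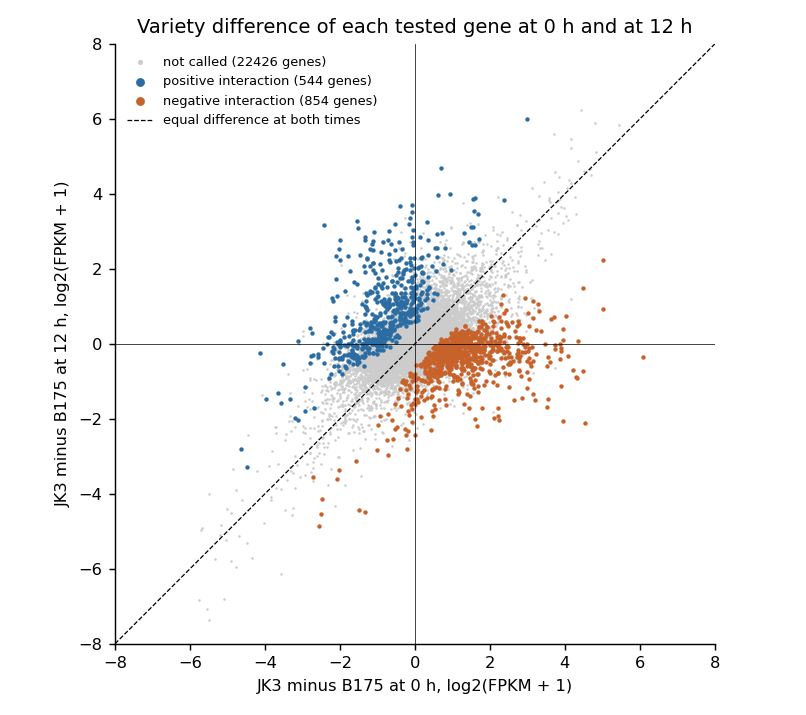
Difference between JK3 and B175 on the log2(FPKM + 1) scale at 0 h (horizontal axis) and at 12 h (vertical axis), 1 point per tested gene, with 544 genes of positive interaction in blue, 854 of negative interaction in orange and 22426 genes not called in grey. The dashed line marks an equal difference at both times, and 3 genes lie outside the axes.

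Within the varieties the called genes followed a few patterns. Of the negative genes 368 rose in B175 and were not called in JK3, 255 rose in both, 115 fell in JK3 alone, 74 rose in B175 and fell in JK3, and 42 fell in both. Of the positive genes 197 fell in B175 and were not called in JK3, 155 rose in JK3 alone, 79 fell in both, 74 fell in B175 and rose in JK3, and 39 rose in both. B12 vs B0 called 45.8% of all tested genes as risen and 15.0% as fallen, and J12 vs J0 called 41.9% and 12.2%.

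These directions within a variety lean on the scale. After median-ratio scaling the same negative genes were split as 340, 120, 223, 80 and 84, and the same positive genes as 260, 105, 114, 42 and 21, in the order given, with 7 and 2 called in neither variety. The median of all tested genes rose by 0.43 in B175 and by 0.37 in JK3 from 0 to 12 h, while 22.3 to 29.3% of the fragments at 0 h and 12.8 to 13.7% at 12 h fell on the 100 genes with the most fragments. With that scaling the risen share of the calls went from 75.3% to 50.8% in B175 and from 77.4% to 50.5% in JK3, and the share called higher in JK3 at 0 h went from 55.1% to 44.7%. The interaction moved less, since the median of all genes in it was -0.05 as deposited and 0.01 after scaling, and it then called 1401 genes, 1216 of them among the 1398. Changes within a variety are given below as deposited and are to be read against these medians, and values on the log2(FPKM + 1) scale understate the change of genes with low FPKM.

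LEA proteins and dehydrins, hydrophilic proteins that accumulate in drying seeds and in leaves short of water, had the highest share of negative calls among the 38 gene lists. Of 21 tested genes 6 were negative and 2 positive, and the median interaction of the list was -0.94 against -0.05 over all genes. All 6 negative genes were higher in J0 than in B0, and 5 or 6 were called in each fit that left out 1 library. With a pseudocount of 0.1 the negative count was 8. By voom 4 were negative and 1 positive, a negative share close to that of aquaporins (5 of 27), so the first rank was then narrow.

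The gene with the most negative interaction of the named genes was the dehydrin DHN1 (Seita.8G115400, chromosome 8). Its FPKM were 7.15, 24.4 and 6.95 in B0, 1790, 905 and 1853 in B12, 835, 720.2 and 865 in J0 and 1062, 1007 and 1331 in J12. The J0 libraries were already near the level that both varieties had at 12 h, the groups did not overlap at 0 h, and they overlapped at 12 h. The interaction was -6.45 ± 0.64 (SE, adjusted p = 4.82e-05), made of a rise of 6.93 in B175 and a change of 0.48 in JK3 that was not called.

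A different timing was seen in LEA31 (late embryogenesis abundant protein 31, Seita.4G159500), which was apart at both times. FPKM were 0.0907, 0.093 and 0 in B0 and 9.56, 7.91 and 8.08 in J0, against 16.6, 12.8 and 16.4 in B12 and 3.58, 5.05 and 8.39 in J12. JK3 was thus the higher variety at 0 h and the lower at 12 h, with no overlap at either time, and the interaction was -4.50 ± 0.49 (adjusted p = 0.000119). Another DHN1 gene, Seita.1G267200, named after its values were seen, went from 133 ± 29.5 FPKM (SD, n = 3) in B0 to 1343 ± 345 in B12 and stood at 1085 ± 491 in J0 and 1263 ± 262 in J12.

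Both positive members of the list were apart at 12 h only. Lea5-A (Seita.5G021400) fell in both varieties, from 401, 321 and 426 FPKM in B0 to 2.99, 1.6 and 0.896 in B12 and from 409, 155 and 349 in J0 to 19.1, 12 and 20 in J12. The fall was the deeper in B175, the groups overlapped at 0 h and not at 12 h, and the interaction was 3.14 ± 0.64 (adjusted p = 0.00964, and 0.119 with voom on the recovered fragments). The other was Lea14-A (Seita.3G130700, 1.94, adjusted p = 0.0329), named after its values were seen and called in 11 of 19 alternatives.

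Heat shock proteins and heat stress factors, chaperones that hold other proteins in shape and the factors that turn their genes on, were negative in 16 of 89 tested genes and positive in 0. The list's median interaction was -0.65, and at 0 h 42 of its members were called higher in JK3 and 4 lower. All 16 genes were in the class apart at 0 h only. By limma 2 genes were positive and 38 negative at an unadjusted p under 0.05, and both voom and median-ratio scaling called 0 as positive. The negative count was 10 by voom and 27 in the 12 libraries of 0 and 12 h alone. The negative count was 8 to 15 when 1 library was left out, with 8 without B0 replicate 3, B12 replicate 1 or J12 replicate 1.

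The chaperone HSP70 (heat shock 70 kDa protein, Seita.5G376100) had the largest interaction of this list. Its FPKM were 6.79, 23.1 and 8.9 in B0, 33.5, 26.6 and 24 in B12, 209.8, 148 and 179 in J0 and 17.6, 15.2 and 33.4 in J12. JK3 started above every B175 library and came down to the range of B175, and the interaction was -4.26 ± 0.66 (adjusted p = 0.00157). The fall in JK3 was called (-3.03), and so was a smaller rise in B175 (1.23).

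Other members, named after their values were seen, moved in different ways to the same sign. The 18.6 kDa class III heat shock protein gene (Seita.1G342400) had a mean of 303 ± 70.4 FPKM (SD) in J0 and 6.98 ± 2.08 in J12, against 39.2 ± 18.5 in B0 and 9.77 ± 1.84 in B12. The heat stress transcription factor gene C-2b (Seita.4G180500) instead rose in B175, from 26.7 ± 3.62 FPKM in B0 to 182 ± 75.3 in B12, and its change in JK3 from 86.3 ± 11.3 to 126 ± 3.35 was 0.55 (adjusted p = 0.0694). The factor genes B-2a (Seita.7G202900) and C-2a (Seita.1G025800) fell in JK3 (-2.21 and -1.86) and had changes of 0.58 and 0.42 in B175.

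**Figure D2:**
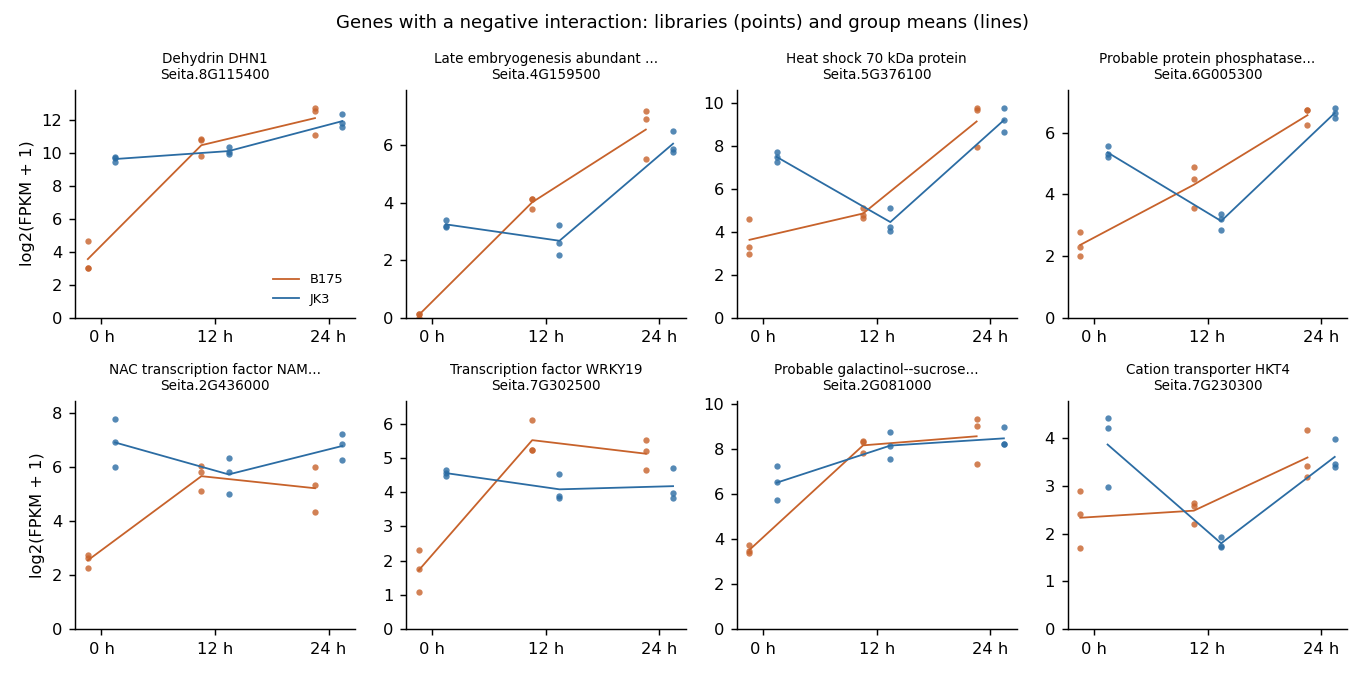
Values of 8 genes with a negative interaction as log2(FPKM + 1) at 0, 12 and 24 h, with a point for each library and lines through the group means, B175 in orange and JK3 in blue. In each panel JK3 starts above B175 at 0 h, and by 24 h the varieties overlap in all but the NAC panel.

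Genes of abscisic acid synthesis, breakdown and signalling, a list that holds every protein phosphatase 2C, were negative in 13 and positive in 3 of 124 tested genes, although the median interaction of the list was 0.04. Of the 13 negative genes 11 were phosphatases. How many of the 124 tested genes are phosphatases was not counted, so these 11 do not show that calls were concentrated in them. The negative count was 8 without B12 replicate 3. Protein phosphatase 2C 37 (Seita.6G005300) stood at 2.99, 5.88 and 3.93 FPKM in B0, 21.8, 10.7 and 28.7 in B12, 35.8, 46.7 and 38.7 in J0 and 9.21, 6.16 and 8.27 in J12. It rose in B175 and fell in JK3, so that the order of the varieties turned round without overlap at either time, and the interaction was -4.18 ± 0.40 (adjusted p = 4.56e-05).

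Of the other steps of the pathway 3 genes are given as examples chosen after their values were seen. NCED5 (9-cis-epoxycarotenoid dioxygenase, Seita.3G391000), which makes the precursor of abscisic acid, fell in JK3 from 15.1 ± 1.83 FPKM (SD) to 3.35 ± 0.164 and stood at 1.85 ± 0.637 and 2.99 ± 1.34 in B0 and B12. The kinase gene SAPK3 (Seita.9G318200) rose in B175 from 18.8 ± 2.5 to 51.5 ± 10 FPKM and was at 54.9 ± 11.3 and 48.3 ± 5.82 in J0 and J12. The abscisic acid receptor gene PYL4 (Seita.9G437300) went the other way, with a positive interaction of 1.24 (adjusted p = 0.00706) and levels of 57.8 ± 5.89 FPKM in B0 and 22.7 ± 3.88 in J0. The varieties were called apart in PYL4 at 0 h only, where B175 was the higher.

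Among transcription factors, NAC genes were negative in 8 of 67, WRKY genes in 6 of 84 and bZIP genes in 6 of 31, with 0, 0 and 2 positive by limma. After median-ratio scaling 1, 1 and 2 were positive, in the 12 libraries of 0 and 12 h alone 1, 2 and 2, and by voom 0, 0 and 0, and the 2 positive bZIP genes were also lost with a pseudocount of 0.1 and at a mean FPKM of at least 1. The medians of the NAC and WRKY lists were -0.01 and -0.10, close to that of all genes. At an unadjusted p under 0.05 limma gave 8 positive NAC and 11 positive WRKY genes. Without 1 library the negative counts went down to 5 (NAC, without any B0 library, among others), 3 (WRKY, without B0 replicate 1 or 3, among others) and 2 (bZIP, without B0 replicate 2 or B12 replicate 3). The NAC gene NAM-B1 (Seita.2G436000), whose wheat namesake promotes leaf senescence, had 5.24, 3.72 and 5.66 FPKM in B0, 55.4, 33.7 and 63.9 in B12, 63.4, 215 and 121 in J0 and 55.4, 31 and 79.7 in J12. It was apart at 0 h only, with an interaction of -4.29 ± 0.65 (adjusted p = 0.00133).

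WRKY19 (Seita.7G302500) was apart at both times. FPKM rose from 2.35, 3.94 and 1.13 in B0 to 36.6, 67.9 and 36.8 in B12, and were 22.7, 21.1 and 24.2 in J0 and 13.2, 22.1 and 14 in J12. Every J0 library lay above B0 and every J12 library below B12, and the interaction was -4.29 ± 0.47 (adjusted p = 0.000119). The bZIP gene 23 (Seita.1G331600), whose rice namesake acts in abscisic acid signalling, rose in B175 from 28.7 ± 7.91 FPKM (SD) to 101 ± 30.5 and was at 70.2 ± 21.8 and 69.3 ± 9.11 in JK3.

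Aquaporins, the water channels of plasma membrane and vacuole, were negative in 5 of 27 and positive in 0 by limma (1 at an unadjusted p under 0.05, 1 after median-ratio scaling, 1 with the replicate block, 1 in the 12 libraries alone and 1 by voom), with a list median of -0.68. The negative count was 2 without B0 replicate 1 or 3, B12 replicate 2, J0 replicate 2 or J12 replicate 3. PIP1-1 (Seita.7G196700, named after its values were seen) stood at 2597 ± 424 FPKM (SD) in J0 against 1046 ± 151 in B0, and at 397 ± 36.8 and 419 ± 40.7 in J12 and B12. It fell in both varieties, from the higher start in JK3.

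Sodium, potassium and other cation transporters were negative in 6 of 60 (2 without B0 replicate 3) and positive in 0 by limma, with 7 positive at an unadjusted p under 0.05. Voom called 3 as negative and 0 as positive, and the 12 libraries of 0 and 12 h alone gave 8 and 5, so the absence of positive calls depends on the libraries fitted. The transporter family HKT, which in rice carries sodium or potassium across membranes, was represented by HKT4 (Seita.7G230300) at 4.35, 6.41 and 2.23 FPKM in B0, 5.28, 5.01 and 3.63 in B12, 20.4, 6.91 and 17.5 in J0 and 2.8, 2.35 and 2.29 in J12. Its level fell in JK3 (-2.07) and did not pass the test in B175 (0.15). The interaction of -2.22 ± 0.52 (adjusted p = 0.019) was not called without B0 replicate 3 (-1.90), without J0 replicate 3 (-2.05) or by voom. The exchanger gene NHX4 (sodium/hydrogen exchanger 4, Seita.4G138500), named after its values were seen, rose in B175 (2.38) with an interaction of -1.97.

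Starch and sucrose genes were negative in 6 of 84, sugar transporters in 3 of 41 and lignin and phenylpropanoid enzymes in 11 of 108, with 0, 0 and 1 positive by limma (4, 2 and 7 at an unadjusted p under 0.05, and 0, 0 and 0 by voom). Without 1 library the negative counts were 4 to 7, 1 to 2 and 6 to 12, the last lowest without B0 replicate 3. Beta-amylase 1 (Seita.9G229700), which breaks down starch in the chloroplast, was at 49.8, 44.5 and 51.6 FPKM in J0 and 4.29, 6.64 and 4.22 in B0, and at 1.08, 0.774 and 1.07 in J12 and 0.985, 1.14 and 1.23 in B12. It fell in both varieties to a shared low level, which gave an interaction of -3.16 ± 0.37 (adjusted p = 0.000226).

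The raffinose synthase gene galactinol-sucrose galactosyltransferase 2 (Seita.2G081000) rose in both varieties instead. It went from 10, 12.1 and 9.26 FPKM in B0 to 322, 225 and 313 in B12 and from 151, 51.4 and 90.5 in J0 to 275, 186 and 433 in J12. The 12 h libraries overlapped, and the interaction of -2.99 ± 0.65 (adjusted p = 0.0133) came with a difference at 0 h only. Trans-cinnamate 4-monooxygenase (Seita.5G361200), an early step of the path to lignin, fell in both varieties to 2.41 ± 0.693 FPKM (SD) in B12 and 2.57 ± 0.734 in J12, from 18.5 ± 0.854 in B0 and 84.7 ± 13.1 in J0.

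**Figure D3:**
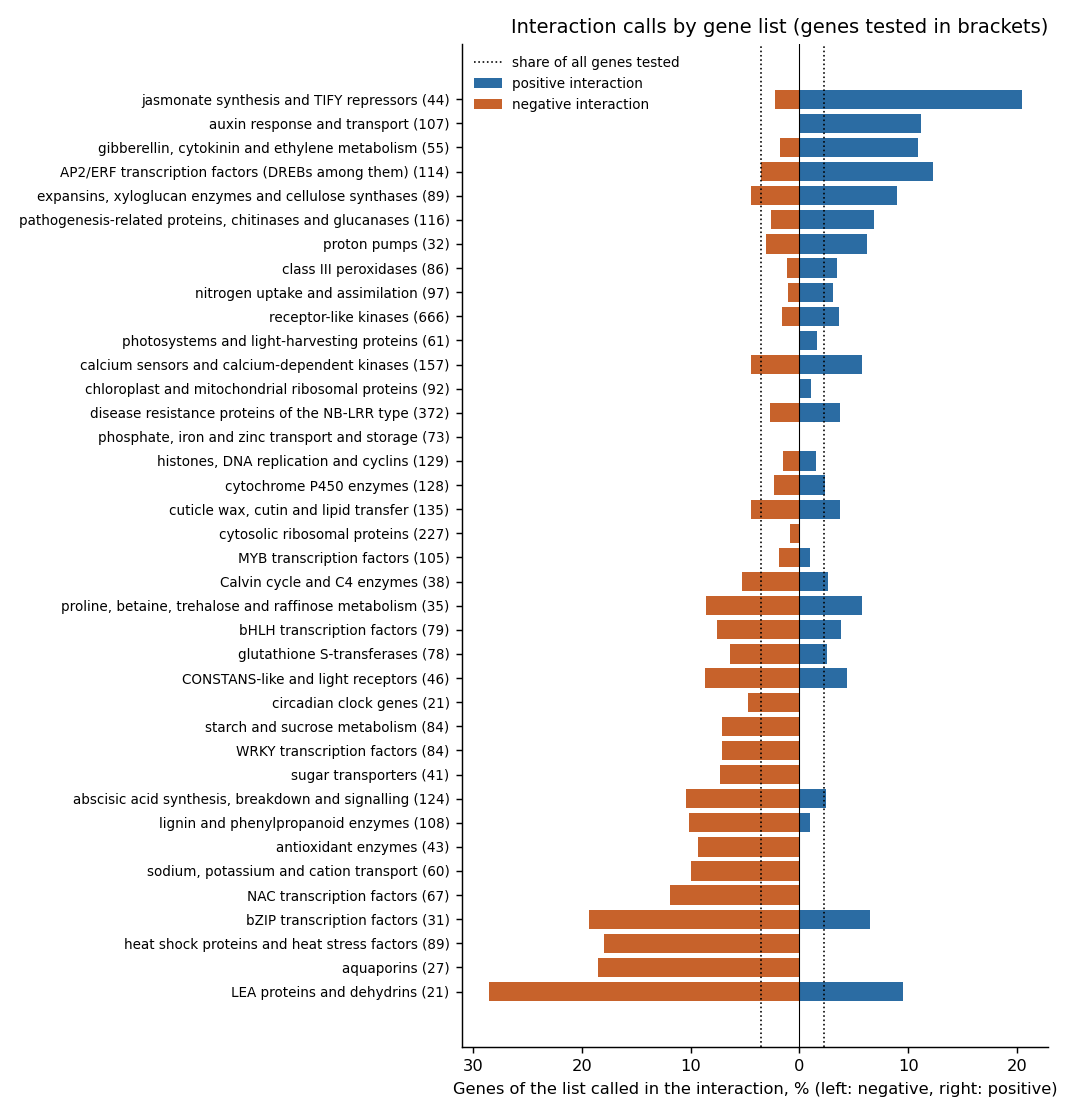
Percent of the tested genes of each of the 38 lists that were called with a negative (left, orange) or a positive (right, blue) interaction, with the number of genes tested in brackets. The dotted lines mark the shares of all genes tested, 3.58% negative and 2.28% positive, and the LEA, bZIP, aquaporin and heat shock lists extend furthest to the left and the jasmonate list furthest to the right.

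By share of a list, positive calls were most frequent among jasmonate (20.5%), AP2/ERF (12.3%) and auxin genes (11.2%), whereas by number receptor-like kinases held the most (24 of 666). Gibberellin, cytokinin and ethylene metabolism was close to auxin in the main fit alone, at 6 positive (10.9%) and 1 negative of 55. Its positive count was 3 by voom and 3 without the filter on low values. When 1 library was left out it was 2 to 6, with 2 without B0 replicate 3 or B12 replicate 1, among others. Genes of jasmonate synthesis and TIFY repressors, the latter known as JAZ proteins that hold jasmonate responses back, were positive in 9 and negative in 1 of 44 tested genes, with a list median of 0.37. The positive count was 7 to 10 when 1 library was left out. Most TIFY 11 genes stand in 2 runs of neighbours in the gene numbering of chromosome 9, and fragments of near-identical copies may have been divided between them, so the value of each single copy is uncertain.

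TIFY 11f (Seita.9G252300) had the most positive interaction of the named genes. Its FPKM were 34.8, 59 and 66 in B0, 0, 0.162 and 0.411 in B12, 14.7, 9 and 4.9 in J0 and 11.7, 15.2 and 4.85 in J12. The gene was nearly silent in B12 alone, B175 was the higher variety at 0 h and the lower at 12 h, and the interaction was 5.60 ± 0.88 (adjusted p = 0.00162). TIFY 11a (Seita.9G518100) was also apart at both times, with 17.2, 27.2 and 27.9 FPKM in B0, 3.99, 3.36 and 0.797 in B12, 2.85, 8.15 and 5.72 in J0 and 17.4, 29.3 and 21.4 in J12.

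TIFY 11a fell in B175 (-2.86) and rose in JK3 (1.91), for an interaction of 4.76 ± 0.59 (adjusted p = 0.000334). The synthesis genes allene oxide synthase 1 (Seita.9G077900) and lipoxygenase 5 (Seita.7G113700), named after their values were seen, were apart at 12 h only. Allene oxide synthase 1 stood at 22.5 ± 4.39 FPKM (SD) in B12 and 102 ± 18.9 in J12, from 114 ± 34 in B0 and 60.3 ± 25.3 in J0. The negative member was a chloroplast lipoxygenase (Seita.1G050700, -1.08, adjusted p = 0.0483), which neither voom nor median-ratio scaling called.

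AP2/ERF transcription factors, with the DREBs among them, were positive in 14 and negative in 4 of 114 tested genes. The positive count was 3 without B12 replicate 1, 4 without B0 replicate 3 or J12 replicate 1, 6 without B0 replicate 2, 7 without J0 replicate 1 and 9 without J12 replicate 2, and the negative one 9 without J0 replicate 1. Without the filter on low values 8 were positive. ERF109 (Seita.6G181700), a gene known in Arabidopsis for its quick answer to stress and jasmonate, kept its call in every alternative. FPKM were 20.5, 33.9 and 40.8 in B0, 0.6, 5.59 and 3.22 in B12, 12.1, 7.26 and 11.1 in J0 and 33.1, 55.3 and 13 in J12, and the interaction was 4.61 ± 0.95 (adjusted p = 0.00997).

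ERF109 was called apart at 12 h only, although its libraries did not overlap at 0 h either, where the difference was -1.53 (adjusted p = 0.105). DREB1E (Seita.7G205200) had 30.8, 53.3 and 88.2 FPKM in B0, 0.661, 20.4 and 19 in B12, 4.57, 29.2 and 35.5 in J0 and 120.4, 90.7 and 56.2 in J12. The low value of B12 replicate 1 weighs on it: the interaction was 4.82 ± 1.24 (adjusted p = 0.0324) with that library and 3.61 without it, where it was not called, and the call was also lost without B0 replicate 2 or 3, J0 replicate 1 and J12 replicate 1 or 2. The neighbouring DREB1A genes Seita.2G280000 and Seita.2G280100, whose fragments may have been divided, were positive with a difference called at neither time. Their calls were lost in 8 and 7 of the 12 fits that left out 1 library.

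On the negative side of the AP2/ERF list, TINY (Seita.5G141600), a DREB-type factor, went from 0.295, 1.63 and 0.0728 FPKM in B0 to 19.4, 14.3 and 25.2 in B12, and from 2.84, 8.69 and 8.6 in J0 to 12.3, 9.39 and 10.8 in J12. The libraries did not overlap at 0 h, where JK3 was higher, nor at 12 h, where B175 was, but only the difference at 0 h was called, and the interaction was -2.98 ± 0.52 (adjusted p = 0.00339).

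**Figure D4:**
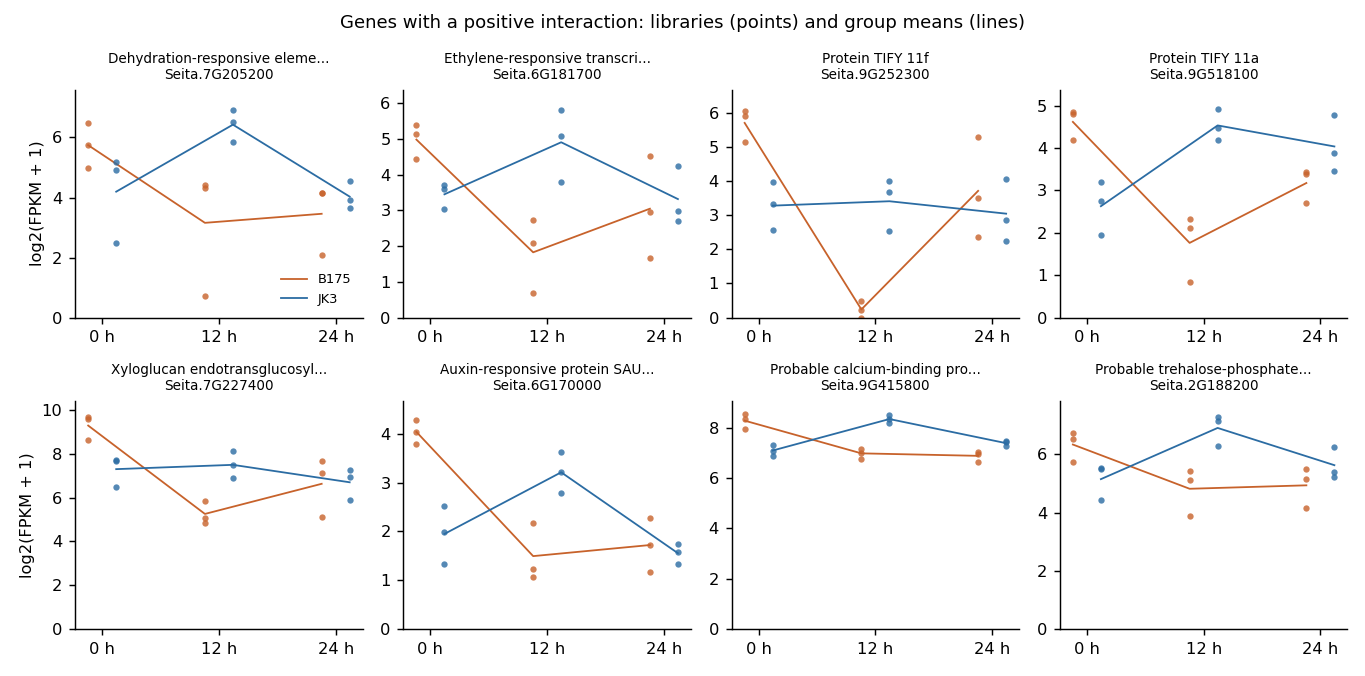
Values of 8 genes with a positive interaction as log2(FPKM + 1) at 0, 12 and 24 h, with a point for each library and lines through the group means, B175 in orange and JK3 in blue. In each panel the B175 mean lies above the JK3 mean at 0 h and below it at 12 h, and the spread between replicates is wide in the panels of DREB1E and ERF109.

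Auxin genes were positive in 12 and negative in 0 of 107 tested genes, with 29 called lower and 6 higher in JK3 at 0 h. By voom 8 were positive and 0 negative, after median-ratio scaling 13 and 0, in the 12 libraries alone 14 and 1, and at an unadjusted p under 0.05 in limma 23 and 8. The positive count was 5 without B12 replicate 1 and 6 to 7 without B0 replicate 3, B12 replicate 3, J0 replicate 2 or any J12 library. SAUR76 (Seita.6G170000), of the small auxin up RNA family that responds within minutes to the hormone, had 15.5, 18.6 and 12.9 FPKM in B0, 1.1, 3.53 and 1.34 in B12, 1.51, 2.98 and 4.75 in J0 and 11.4, 8.3 and 5.9 in J12. It was apart at both times in opposite directions, with an interaction of 3.81 ± 0.50 (adjusted p = 0.000519).

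Other auxin genes lost a difference instead of turning it round. SAUR36 (Seita.2G311800, named after its values were seen and 1 of several copies) fell in B175 from 82.2 ± 27.2 FPKM (SD) to 0.534 ± 0.175 and in JK3 from 10.2 ± 6.6 to 0.633 ± 0.42. Its interaction of 3.17 thus came from a higher start in B175.

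Cell wall enzymes were positive in 8 and negative in 4 of 89 tested genes of expansins, xyloglucan enzymes and cellulose synthases. XTH24 (xyloglucan endotransglucosylase/hydrolase 24, Seita.7G227400), which cuts and rejoins the xyloglucan chains of the wall, had 393, 821 and 765 FPKM in B0, 27.8, 56.9 and 32.4 in B12, 89, 204 and 212 in J0 and 178, 279 and 117 in J12. Its level fell in B175 (-4.04) with no call in JK3 (0.20), the groups overlapped at neither time, and the interaction was 4.24 ± 0.81 (adjusted p = 0.0066). On the negative side expansin-B12 (Seita.9G157100) rose in both varieties, to 77.1 ± 20.9 FPKM (SD) in B12 and 35.2 ± 13.6 in J12. Its interaction was -3.66, and the varieties were called apart at 0 h only, so the gap at 12 h did not pass the test.

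Calcium sensors and calcium-dependent kinases were positive in 9 (5.73%) and negative in 7 (4.46%) of 157 (5 and 4 without B0 replicate 3). Over all tested genes the shares were 2.28% and 3.58%, so the negative share was near that of all genes. Both voom and median-ratio scaling called 8 as positive and 5 as negative. The calmodulin-like gene CML27 (Seita.9G415800) fell in B175 from 247, 372 and 328 FPKM in B0 to 109, 128 and 143 in B12 and rose in JK3 from 133, 160.0 and 118 in J0 to 368, 289 and 324 in J12. The replicates lay close together, the order of the varieties was reversed between the times, and the interaction was 2.55 ± 0.25 (adjusted p = 4.82e-05). CIPK5 (CBL-interacting protein kinase 5, Seita.5G145900) was negative (-3.09), with 87.5 ± 27.8 FPKM (SD) in J0, 16.2 ± 1.81 in J12, 12.1 ± 3.35 in B0 and 22.6 ± 12 in B12.

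Sugar signalling added a gene apart at 12 h only. TPP7 (trehalose-phosphate phosphatase 7, Seita.2G188200), which removes the signal sugar trehalose 6-phosphate, had 52.7, 91.2 and 106 FPKM in B0, 13.8, 33.9 and 42.3 in B12, 20.6, 43.9 and 44.9 in J0 and 141, 156 and 76.6 in J12. It fell in B175 and rose in JK3, with an interaction of 3.28 ± 0.65 (adjusted p = 0.008). TPP1 (Seita.1G262000, named after its values were seen) had the same sign, at 1.74.

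The lowest adjusted p of the named genes was that of cytochrome P450 704C1 (Seita.7G206600), apart at 12 h only. Its FPKM were 19.8, 20.5 and 20.2 in J12 and 1.84, 1.41 and 0.816 in B12, against 0, 0.017 and 0 in J0 and 0.205, 0.0702 and 0.0844 in B0. The 3 J12 libraries were nearly equal and every other library of 0 to 12 h stood below them, with an interaction of 3.34 ± 0.23 (adjusted p = 1.72e-06). At 24 h it was back to 0.113, 0.271 and 0.421 in J24 and 0.252, 0.179 and 0 in B24.

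Among negative genes apart at 12 h only, the transcription factor gene BHLH6 (Seita.7G045100), 1 of several copies, fell in JK3 alone. FPKM were 26.3, 26.9 and 45.6 in J0 and 4.09, 3.97 and 3.5 in J12, and 21.5, 23.5 and 25.5 in B0 and 25.5, 23.5 and 20.2 in B12. The interaction was -2.73 ± 0.27 (adjusted p = 4.82e-05), and the difference at 0 h was 0.43 (adjusted p = 0.115). SWEET16 (Seita.9G410000), of a family that moves sugars across membranes, rose in both varieties but further in B175, to 81.4, 66.6 and 69.1 FPKM in B12 and 30.8, 27.4 and 23.5 in J12, from 7.14, 16.1 and 10.9 in B0 and 19.6, 12.9 and 14 in J0.

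SWEET16 was also called apart at 24 h, at 93.9, 113 and 95.9 FPKM in B24 and 28.8, 28.4 and 36.1 in J24 (J24 vs B24 -1.67, adjusted p = 0.000139). The laccase 19 gene (Seita.8G212900), of the lignin list, was positive (2.03, adjusted p = 0.0253) and was also called apart at 24 h (1.89, adjusted p = 0.00308). Its interaction was not called in several fits without 1 library, among them those without J12 replicate 3 and B12 replicate 1.

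The varieties were called apart at neither time in 37 genes. Of these the negative HIPP26 gene (heavy metal-associated isoprenylated plant protein 26, Seita.8G208100) rose in both varieties, from 30.1, 38.5 and 34.7 FPKM in B0 to 486, 386 and 716 in B12 and from 39.7, 133 and 45.4 in J0 to 268, 182 and 263 in J12. Its libraries did not overlap at 0 h, where JK3 was higher, nor at 12 h, where B175 was, although neither difference was called. The positive SAP2 gene (stress-associated protein 2, Seita.5G297700) rose in JK3 alone (1.84). HIPP26 was called in 10 and SAP2 in 11 of 19 alternatives, so both lay near the threshold.

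Several lists held few interaction calls. Photosystem and light-harvesting genes were positive in 1 and negative in 0 of 61 by limma (7 and 0 at an unadjusted p under 0.05, 0 and 0 by voom), while 39 of them were lower in JK3 at 0 h, 24 at 12 h and 3 at 24 h. Cytosolic ribosomal proteins were called in 2 of 227, both negative, and chloroplast and mitochondrial ones in 1 of 92, a positive one. For the latter, 18 positive and 9 negative genes had an unadjusted p under 0.05, voom called 1 and 1, median-ratio scaling 2 and 1, and the 12 libraries alone 4 and 2. The phosphate, iron and zinc list had 0 calls of 73 in limma, with 16 genes at an unadjusted p under 0.05 1 call each by voom and after median-ratio scaling and 3 negative calls in the 12 libraries alone.

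Clock genes gave 1 negative call of 21, REVEILLE 1 (Seita.7G212900), a clock output gene in Arabidopsis. It rose in both varieties by the largest steps of the named genes, from 0.868, 0.297 and 0.419 FPKM in B0 to 323, 289 and 419.7 in B12 and from 2.4, 1.29 and 1.9 in J0 to 237, 203 and 199 in J12. The interaction of -1.58 ± 0.38 (adjusted p = 0.0213) was small beside these changes, and it was not called without B0 replicate 2 or 3, B12 replicate 3 or J12 replicate 2 or 3.

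The labelled tissue was checked against markers. The summed FPKM of 19 leaf genes, chlorophyll a-b binding proteins and the small chain of Rubisco, was 24909 to 31292 in B0, 10849 to 13282 in J0, 3885 to 6414 in B12 and 1781 to 1893 in J12, so this sum was lower in JK3 at both times, and none of the 18 tested was called in the interaction. At 24 h it overlapped, at 8683 to 20810 in B24 and 7238 to 9156 in J24. C4 mesophyll markers were closer at 0 h, with sums of 17687 to 21470 in B0 and 16410 to 16876 in J0, and 3559 to 4339 in B12 and 2729 to 3417 in J12. Bundle sheath markers summed to 5223.6 to 5642.5 in B0, 3135.5 to 3775.3 in J0, 757 to 881 in B12 and 621 to 782 in J12. At 0 h 1 of 9 mesophyll genes was called higher and 1 lower in JK3, and of 7 bundle sheath genes 2 and 1. Markers of dividing tissue summed to 370 to 457 in B0, 331 to 429 in J0, 765 to 950 in B12 and 626 to 753 in J12. Of 4 root markers the 3 casparian strip genes stayed under 1 FPKM in all libraries, and the fourth, a root-specific lectin (Seita.6G093800), reached 31.4 FPKM in 1 library. Their summed FPKM was 2.93 to 5.95 in B0 and 1.18 to 12.8 in B12 but 0.038 to 0.431 in J0 and 0.245 to 1.1 in J12, so the sum was higher in B175 at both times, though by little between the nearest libraries at 12 h. It was 0 to 31.6 in B24 and 0.0419 to 0.202 in J24. Of these markers 2 were tested, and 0 were called apart between the varieties at 0, 12 or 24 h. In whole leaves fewer cells of a type and less RNA per cell cannot be told apart, and the part of these levels in the calls was not tested.

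The varieties at 24 h were then set beside the classes. The 24 h libraries are no part of the estimate of the interaction, but they share its estimate of error, so they are not independent of the calls. J24 vs B24 called 6.85% of all tested genes, 3.22% higher and 3.63% lower in JK3. It called 83 of the 899 genes apart at 0 h only (9.23%), 46 of the 314 apart at 12 h only (14.6%), 56 of the 148 apart at both times (37.8%) and 0 of the 37 apart at neither. The direction at 24 h mostly repeated the one at the time of the class: of the 652 negative genes apart at 0 h only 42 were higher and 6 lower in JK3, and of the 208 positive genes apart at 12 h only 24 were higher and 0 lower.

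The median differences of the classes were small at 24 h. In the negative genes apart at 0 h only the median was -0.14 at 12 h and 0.11 at 24 h. In the positive genes of that class it was 0.10 at 12 h and -0.29 at 24 h. The positive genes apart at 12 h only had a median of 0.40 at 24 h. Genes apart at 1 time only were chosen for a difference at that time, so a smaller median at another time is in part set by the choice. For DHN1 (Seita.8G115400) the 24 h values were 6801, 2223 and 6129 FPKM in B24 and 3724, 3162 and 5371 in J24, with overlap. Of the heat shock list 2 genes were higher and 1 lower in JK3 at 24 h, against 42 and 4 at 0 h.

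**Figure D5:**
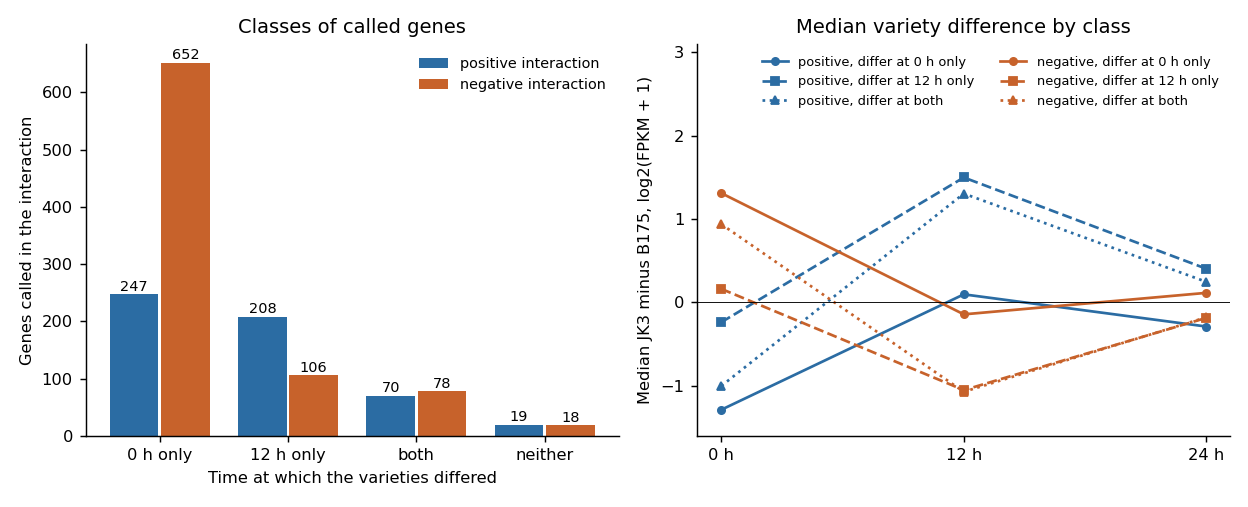
Left, number of genes called in the interaction by the time at which the varieties differed, positive in blue and negative in orange, with 652 negative genes apart at 0 h only as the highest bar. Right, median of JK3 minus B175 on the log2(FPKM + 1) scale over the genes of each class at 0, 12 and 24 h, with all medians between -0.29 and 0.40 at 24 h.

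Among 255 GO terms with at least 50 tested genes, those with the highest shares of calls are given as a description with no test. The negative ones were protein serine/threonine phosphatase activity (11 of 83 genes), mRNA cis splicing (7 of 61), carboxylic ester hydrolase activity (7 of 62), response to heat (15 of 133) and unfolded protein binding (14 of 135). In the same order these terms held 2, 0, 1, 1 and 0 positive calls. The positive ones were anchored component of plasma membrane (12 of 125), amino acid transmembrane transport (5 of 53), glucan endo-1,3-beta-D-glucosidase activity (5 of 55), response to chitin (8 of 91) and amino acid transmembrane transporter activity (5 of 57). In the same order these terms held 2, 3, 1, 6 and 4 negative calls. Over all tested genes 2.28% were positive and 3.58% negative. The amino acid terms (5.66% and 7.02% negative) and response to chitin (6.59%) were thus called above these shares in both directions. By the chromosome in the gene identifier, the share of tested genes called was lowest on chromosome 3 (45 positive and 95 negative of 2882) and highest on chromosome 7 (57 and 102 of 2273) among the 9 chromosomes. The share over all tested genes was 5.87%.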

How the data were processed

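RNA of leaves from 18 libraries was sequenced. The authors deposited FPKM for 29108 genes with Phytozome v2.2 identifiers, UniProt-style descriptions and GO terms. The submitters' processing notes name fastp, HISAT2, HTSeq, R 3.2.0 and DESeq2 without their roles, and the genome build of the alignment is not given in a usable form in the sources used here. The FPKM of every gene were whole multiples of a step, which gave back the fragments (100% of genes whole within 0.01), 34738627 to 38798886 a library. Libraries of 1 group correlated at 0.954 to 0.991 and none was a duplicate of another. Intervals from the p-values cover the spread between 3 libraries a group, and the sources name them biological replicates without saying how many plants made each.

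The genes whose mean FPKM reached 0.1 were fitted as log2(FPKM + 1) in limma 3.58.1 (R 4.3.3), with 6 group means over all 18 libraries and a variance that follows the level. Tests were two-sided with Benjamini-Hochberg adjustment over all 23824 tested genes, called at an adjusted p under 0.05. An exact permutation test of 3 against 3 libraries cannot go below 0.1 and was not used. Named genes were, among genes called as deposited and after median-ratio scaling with a description and a group mean of at least 5 FPKM, the 3 with the largest interaction in each direction and class and the largest in each direction of each list. Lists were matched by description. The list of histones, DNA replication and cyclins also holds cyclin-dependent kinases. The comparison, lists and rules were chosen with earlier results of these data known. Also run were a pseudocount of 0.1, the fit unfiltered or with a minimum mean of 1 FPKM, median-ratio scaling, a replicate block, the 12 libraries alone, voom on the fragments, a limit on the fold and leaving out each library, and those for GO terms and chromosomes were added after the data were seen. Identifiers matched 0 entries of the RefSeq gene table, so no coordinates or sequences are given. Python 3.11.15 with pandas 2.3.3, numpy 2.4.6 and matplotlib 3.10.9 served for the other steps.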

Additional observations from a re-analysis of the deposited data

Results flagged for a closer look

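The count of 1398 genes is listed because the interaction tests whether the change from 0 to 12 h differed between JK3 and B175. A difference in daily rhythm or hour of sampling would remain in it and cannot be told apart from a difference in response. The same holds for the 75 named genes, whose interactions are given here on the log2(FPKM + 1) scale, JK3 minus B175, and which were all tested by limma at an adjusted p under 0.05.

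Where the varieties differed at 0 h only, the negative interactions were -6.45 for Dehydrin DHN1 (Seita.8G115400), -5.99 for Acidic protein (Seita.6G135200), -5.24 for Outer envelope pore protein 16-2, chloroplastic (Seita.9G431100) and -4.29 for NAC transcription factor NAM-B1 (Seita.2G436000). They were followed by -4.26 for Heat shock 70 kDa protein (Seita.5G376100), -4.09 for Bowman-Birk type wound-induced proteinase inhibitor WIP1 (Seita.5G089300), -3.66 for Expansin-B12 (Seita.9G157100) and -3.16 for Beta-amylase 1, chloroplastic (Seita.9G229700). Next in size came -3.09 for CBL-interacting protein kinase 5 (Seita.5G145900), -2.99 for galactinol--sucrose galactosyltransferase 2 (Seita.2G081000), -2.98 for Ethylene-responsive transcription factor TINY (Seita.5G141600) and -2.50 for 60S ribosomal protein L10-1 (Seita.8G124200). Smaller ones were -2.31 for Disease resistance protein RGA2 (Seita.9G292700), -2.26 for glutathione S-transferase GSTU6 (Seita.5G279900), -2.22 for Cation transporter HKT4 (Seita.7G230300) and -2.21 for Ribulose bisphosphate carboxylase/oxygenase activase B, chloroplastic (Seita.8G250600). Further down stood -2.06 for Trans-cinnamate 4-monooxygenase (Seita.5G361200), -1.87 for aquaporin TIP1-2 (Seita.5G469800), -1.75 for bZIP transcription factor 23 (Seita.1G331600) and -1.71 for 3-ketoacyl-CoA synthase 5 (Seita.4G116400). Below them stood -1.69 for Histone H1 (Seita.4G020700), -1.66 for Transcription factor MYBC1 (Seita.3G242400), -1.61 for L-type lectin-domain containing receptor kinase SIT2 (Seita.2G026000) and -1.58 for Protein REVEILLE 1 (Seita.7G212900). At the lower end were -1.34 for Zinc finger protein CONSTANS-LIKE 13 (Seita.9G404500), -1.32 for Cationic peroxidase SPC4 (Seita.3G005100) and -1.08 for V-type proton ATPase subunit G1 (Seita.7G225100). Where the varieties differed at 0 h only, the positive interactions were 4.46 for Protein PHOSPHATE-INDUCED 1 homolog (Seita.1G326200), 3.43 for Xyloglucan endotransglucosylase/hydrolase protein 22 (Seita.4G246400), 3.36 for Aspartic proteinase PCS1 (Seita.5G378700) and 3.29 for Peroxidase 24 (Seita.5G046600). They were followed by 1.31 for Pyrophosphate-energized vacuolar membrane proton pump (Seita.1G060000), 1.19 for 30S ribosomal protein 3, chloroplastic (Seita.7G125300), 1.08 for Transketolase, chloroplastic (Seita.4G023100) and 1.06 for Protein NRT1/ PTR FAMILY 6.1 (Seita.5G068000).

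Where the varieties differed at 12 h only, the negative interactions were -2.73 for Transcription factor BHLH6 (Seita.7G045100), -2.60 for Acid phosphatase 1 (Seita.3G110700), -2.43 for Methylcrotonoyl-CoA carboxylase subunit alpha, mitochondrial (Seita.3G382200) and -1.84 for Bidirectional sugar transporter SWEET16 (Seita.9G410000). They were followed by -1.31 for Cytochrome P450 714B1 (Seita.2G434000). Where the varieties differed at 12 h only, the positive interactions were 4.82 for Dehydration-responsive element-binding protein 1E (Seita.7G205200), 4.61 for Ethylene-responsive transcription factor ERF109 (Seita.6G181700), 4.06 for COBRA-like protein 7 (Seita.9G434000) and 3.75 for Glucan endo-1,3-beta-glucosidase 14 (Seita.7G090400). They were followed by 3.34 for Cytochrome P450 704C1 (Seita.7G206600), 3.29 for Transcription factor BHLH148 (Seita.9G098200), 3.28 for trehalose-phosphate phosphatase 7 (Seita.2G188200) and 3.14 for Late embryogenesis abundant protein Lea5-A (Seita.5G021400). Next in size came 2.36 for Receptor kinase-like protein Xa21, processed (Seita.5G281400), 2.27 for B-box zinc finger protein 20 (Seita.1G253100), 2.03 for Laccase-19 (Seita.8G212900) and 1.81 for protein phosphatase 2C 33 (Seita.9G433400). Smaller ones were 1.64 for Chitin-inducible gibberellin-responsive protein 1 (Seita.2G343700) and 1.22 for Transcription factor MYB15 (Seita.9G222100).

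Where the varieties differed at both times, the negative interactions were -4.50 for Late embryogenesis abundant protein 31 (Seita.4G159500), -4.29 for Transcription factor WRKY19 (Seita.7G302500), -4.18 for protein phosphatase 2C 37 (Seita.6G005300) and -3.49 for Transcription factor bHLH168 (Seita.5G072900). They were followed by -2.96 for 1-aminocyclopropane-1-carboxylate oxidase homolog 1 (Seita.7G032100) and -2.52 for L-ascorbate peroxidase 6, chloroplastic/mitochondrial (Seita.3G268800). Where the varieties differed at both times, the positive interactions were 5.60 for Protein TIFY 11f (Seita.9G252300), 4.76 for Protein TIFY 11a (Seita.9G518100), 4.24 for Xyloglucan endotransglucosylase/hydrolase protein 24 (Seita.7G227400) and 3.81 for Auxin-responsive protein SAUR76 (Seita.6G170000). They were followed by 2.55 for calcium-binding protein CML27 (Seita.9G415800), 2.51 for disease resistance protein RGA3 (Seita.2G055800), 2.26 for GDSL esterase/lipase At5g45910 (Seita.5G245400) and 2.25 for glutathione S-transferase GSTU6 (Seita.9G345800).

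Where the varieties were called apart at neither time, the negative interactions were -1.97 for Heavy metal-associated isoprenylated plant protein 26 (Seita.8G208100), -1.34 for Ureide permease 2 (Seita.3G357700) and -1.34 for Tryptophan decarboxylase 1 (Seita.6G068000). Where the varieties were called apart at neither time, the positive interactions were 3.45 for Dehydration-responsive element-binding protein 1A (Seita.2G280000), 3.13 for Dehydration-responsive element-binding protein 1A (Seita.2G280100), 1.91 for Zinc finger A20 and AN1 domain-containing stress-associated protein 2 (Seita.5G297700) and 1.36 for Cyclin-dependent kinase inhibitor 1 (Seita.1G329500).

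Of the 75 named genes 45 kept their call in all of the alternatives that could be fitted, 30 lost it in at least 1 and 0 turned their direction. The naming rule required a call after median-ratio scaling and took the largest interactions. The call under that scaling was therefore fixed by the rule, and a turn of direction was unlikely from the outset. Copies of TIFY 11, DREB1A, GSTU6 and SAUR genes may share fragments, so their single values are uncertain. Causes of these differences were not tested.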

How the results depend on the processing

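The interaction called 1398 genes, and 1222 with a pseudocount of 0.1, 1228 without a filter, 1368 at a mean FPKM of at least 1, 1401 after median-ratio scaling, 1979 in the 12 libraries of 0 and 12 h alone and 1026 by voom. With the replicate block it called 1339, 1227 of them among the 1398. Libraries of the same number had correlations of their deviations of -0.22 to 0.16, 4 of 18 above 0.1, and the labels do not pair them. Without 1 library it called 770 to 1455 genes: 912 without B0 replicate 2, 770 without B0 replicate 3, 863 without B12 replicate 1, 888 without B12 replicate 3, 899 without J12 replicate 1 and 880 without J12 replicate 2. J0 vs B0 called 4077 to 6203 genes without 1 library, lowest without J0 replicate 2, J12 vs B12 1476 to 2612, with 1476 without B12 replicate 1 and 1509 without J12 replicate 2, and J24 vs B24 1355 to 2140, B12 vs B0 13153 to 14661 and J12 vs J0 11267 to 12804. With an absolute log2 difference above 1 as a further limit, J0 vs B0 called 3050 genes, J12 vs B12 1512, B12 vs B0 9015, J12 vs J0 7533 and J24 vs B24 1085. After median-ratio scaling the classes held 968 genes apart at 0 h only, 247 at 12 h only, 145 at both times and 41 at neither, and 42 genes that fell in B175 and rose in JK3 in place of 74. Of the 75 named genes 0 changed direction in any alternative, which their choice by size and by a call after median-ratio scaling made likely beforehand. With 3 libraries a group the count depends on single libraries, and genes of few fragments and copies that share fragments are the least certain.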
